A study of Mus musculus with 6 samples.

Results

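The miR-181 family was followed through small-RNA sequencing of a mouse epicardial cell line, in cells that received a lentivirus carrying a guide RNA against Hdac3 for CRISPR/Cas9 knockout (KO, 3 libraries) and in cells that received an empty-vector lentivirus (EV, 3 libraries). Members were picked by name, as every mature microRNA of the count table named miR-181a, miR-181b, miR-181c or miR-181d, with or without a copy number and on either arm. The choice was made with earlier results of these data known. The name rule gave 10 of the 1028 mature microRNAs in the table, and 9 of them had enough reads to be tested. Hdac3 is a histone deacetylase that works in repressor complexes, and the epicardium is the outer cell layer of the heart. All 6 libraries came from 1 cultured line that had been transduced and grown with serum. Neither the genotype of single cells nor the use of a pool or a clone is stated in the sources used here.

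A microRNA hairpin is cut into a duplex, and either strand, named 5p or 3p after its arm, can enter the silencing complex, where its seed (bases 2 to 8) pairs with target messages. The miR-181 hairpins lie in 3 paired clusters that arose by duplication, and their 5p strands share 1 seed. Members of the family are best known from lymphocyte development, where miR-181a sets the sensitivity of T-cell receptor signalling in mice. In mouse vascular endothelium miR-181b restrains NF-kB signalling, and in rat heart muscle cells miR-181c has been found acting on a mitochondrial message.

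The mature sequences show which reads can be told apart, and so which counts speak for a single cluster. They are given 5′ to 3′ from RefSeq (GRCm38.p6), which held all 10 members, with the seed in capitals. The 5p strands come first.
miR-181a-5p: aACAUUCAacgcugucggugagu
miR-181b-5p: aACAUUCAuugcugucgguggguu
miR-181c-5p: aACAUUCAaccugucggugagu
miR-181d-5p: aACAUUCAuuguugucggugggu
miR-181a-1-3p: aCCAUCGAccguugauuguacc
miR-181c-3p: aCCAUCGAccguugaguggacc
miR-181a-2-3p: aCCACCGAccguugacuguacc
miR-181b-1-3p: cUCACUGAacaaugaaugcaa
miR-181b-2-3p: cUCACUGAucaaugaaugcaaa
miR-181d-3p: cCCACCGGgggaugaauguca

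The 4 strands of the 5p arm carried the seed ACAUUCA, which none of the other mature mouse microRNAs in the RefSeq table (1679 names in all) carried. The 3p strands fell into 4 seeds. miR-181a-1-3p and miR-181c-3p shared CCAUCGA although their hairpins lie on different chromosomes, and miR-181b-1-3p and miR-181b-2-3p shared UCACUGA. miR-181a-2-3p had CCACCGA, because it differed from miR-181a-1-3p by U5C, inside the seed, and by U16C, with positions counted from 1 at the 5′ end. miR-181b-5p and miR-181d-5p differed by C12U over 23 bases and by 1 base in length, miR-181b-1-3p and miR-181b-2-3p by A9U and 1 base in length, and miR-181a-1-3p and miR-181c-3p by U16G and U19G. miR-181c-5p matched miR-181a-5p apart from 1 missing base, a G. The treatment of reads that match several names, and the number of mismatches allowed, are not given in the sources used here, so counts of these close pairs are uncertain to an unknown degree.

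miR-181a-5p and miR-181b-5p are encoded in identical form by the clusters on chromosomes 1 and 2, so for those clusters only the 3p arms tell which locus the reads came from. The hairpins of miR-181a show this, with the mature arms in capitals.
Mir181a-1: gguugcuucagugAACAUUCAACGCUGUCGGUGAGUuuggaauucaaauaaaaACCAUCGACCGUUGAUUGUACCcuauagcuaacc
Mir181a-2: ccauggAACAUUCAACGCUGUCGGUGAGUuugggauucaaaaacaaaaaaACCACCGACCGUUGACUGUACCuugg

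In GRCm38, Mir181a-1 lies at chr1:137966455-137966541 and Mir181b-1 at chr1:137966639-137966718, both on the plus strand, 97 bases apart. They lie within an intron of the noncoding gene Gm4258 on the same strand, and overlap an exon of the noncoding gene A430106G13Rik. Mir181a-2 (chr2:38852735-38852810) and Mir181b-2 (chr2:38853830-38853918), also on the plus strand, are 1019 bases apart and lie in an intron of Nr6a1, a nuclear receptor gene transcribed from the opposite strand. Mir181c (chr8:84178873-84178961) and Mir181d (chr8:84178716-84178787) are 85 bases apart on the minus strand, in an intron of the annotated gene Nanos3 on the same strand.

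The libraries held 12720548 to 13412774 counts in KO and 11824881 to 12806873 in EV, and the family took 0.0610% to 0.0686% of them in KO and 0.0795% to 0.103% in EV. Levels are given as CPM, the depth-scaled count of edgeR, in which a count is set against the library total multiplied by its TMM normalization factor. In these libraries 1 read was worth 0.0637 to 0.0892 CPM. The factor of EV 1, at 1.23, was the highest of the 6. Small-RNA libraries do not read the Hdac3 message, so the knockout itself was not checked. Mesenchymal microRNAs were abundant (6 of 6 markers tested, 0 called), summing to 765489 to 837968 CPM in KO and 593902 to 842707 CPM in EV, with miR-21a-5p alone taking 63.0% to 70.1% of all counts. Of the 9 blood and lymphoid markers, 5 had no more than 10 reads in any library. Among these, miR-142a-3p, miR-144-3p and miR-223-3p had 0 reads in every library except EV 2, where they stood at 0.245, 0.0816 and 0.163 CPM. The other 4 were present. miR-155-5p stood at 48.2 to 60.7 CPM in KO and 47.5 to 61.6 CPM in EV, and miR-146a-5p at 3.68 to 4.79 CPM in KO and 3.63 to 4.64 CPM in EV. KO 2 and EV 3 stood apart from the other libraries in several markers. The red-cell microRNA miR-451a was at 62.7 CPM in KO 2 and 54.7 CPM in EV 3, against at most 2.45 CPM elsewhere, and miR-486a-5p at 15.1 CPM in KO 2 and 13.3 CPM in EV 3, against 5.68 to 9.25 CPM elsewhere. The neural miR-9-5p was at 57.1 CPM in KO 2 and 51.4 CPM in EV 3, against 11.3 to 32.6 CPM elsewhere. Whether the 3 libraries of a group came from separate cultures is not in the labels, so every p-value below is set by library-to-library spread that could be purely technical.

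All 9 tested members, from all 3 clusters, had lower mean levels in KO than in EV cells, and the difference passed the test for 2 of them. miR-181b-5p fell by 0.41 and miR-181a-2-3p fell by 0.63 on the log2 scale, and 0 members rose. Fewer cells with a high level and less of a microRNA per cell cannot be told apart in such bulk libraries. The other 7 tested members had log2 changes from -0.34 to -0.09 and were not called. Of the 460 microRNAs tested by edgeR's quasi-likelihood test with Benjamini-Hochberg adjustment at 0.05, 7.61% were called in either direction and 2.61% were called lower in KO. The median log2 change was -0.27 over the 9 members and -0.01 over all tested microRNAs. All 9 members had log2 changes below 0, as had 51.7% of all tested. In 6 of the 9, every KO value lay below every EV value, which held for 13.9% of all tested microRNAs. At an unadjusted p under 0.05, 4 members were lower, against 10.4% of all tested. Members share hairpins, loci and possibly reads, so they are not independent.

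**Figure D1:**
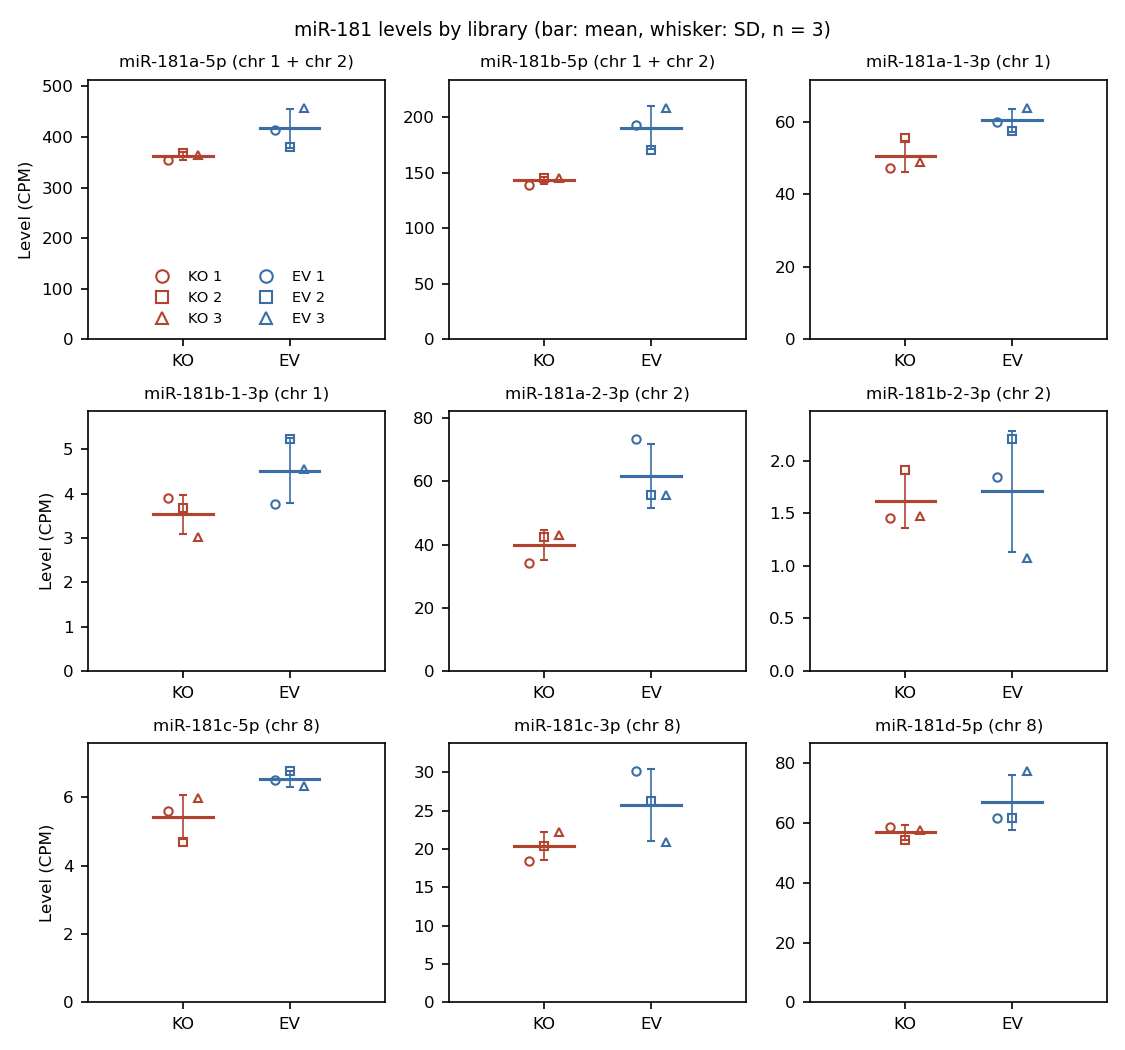
CPM (vertical axis, from 0, a separate scale for each panel) of the 9 tested members in the 3 KO and 3 EV libraries, with the cluster in brackets; points are libraries, bars means and whiskers SD. For miR-181b-5p the KO libraries sit between 139 and 145 CPM, all under the EV libraries, whereas the groups overlap for miR-181b-1-3p, miR-181b-2-3p and miR-181c-3p.

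**Figure D2:**
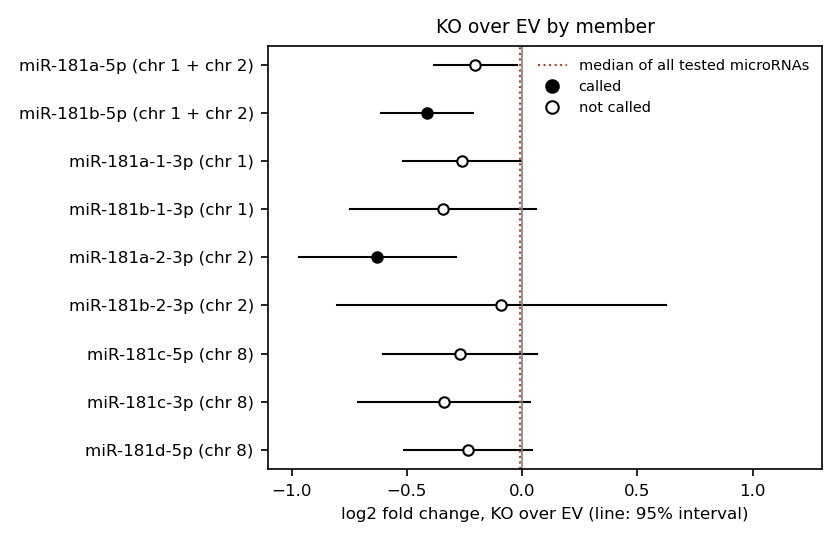
Log2 fold change of KO over EV (horizontal axis) with its 95% interval for each tested member, filled where the member was called. All 9 points lie left of 0 and left of the dotted median of all tested microRNAs, and the intervals of 4 members end below 0.

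The 5p strands shared by the clusters on chromosomes 1 and 2 made up most of the family's reads. miR-181b-5p, the strand studied in endothelium, stood at 139, 145 and 145 CPM in KO libraries 1 to 3, against 193, 170.3 and 209 CPM in EV libraries 1 to 3. The highest KO library lay well under the lowest EV library, and the KO libraries were closer to each other than the EV libraries. The means were 143 ± 3.36 CPM in KO and 190.5 ± 19.3 CPM in EV (SD, n = 3 each), a log2 change of -0.41 (SE 0.09, edgeR Benjamini-Hochberg adjusted p = 0.0215). This rested on 1719 to 1818 reads in KO and 2086 to 3026 reads in EV.

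miR-181a-5p, the T-cell strand and the most abundant member, stood at 354, 369 and 365 CPM in KO libraries 1 to 3, against 413, 381 and 458 CPM in EV libraries 1 to 3. The groups did not overlap, but KO 2 and EV 2 were close. Its log2 change of -0.20 (SE 0.08, 95% interval -0.38 to -0.02) was not called (edgeR adjusted p = 0.173).

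The balance between these strands was also set side by side, for a pair chosen after its values were seen. Per library, miR-181b-5p had 0.394, 0.393 and 0.399 reads for each read of miR-181a-5p in KO, against 0.466, 0.447 and 0.456 in EV. The KO ratios spanned a narrow range, wholly under the EV ratios, but 3 libraries a group cannot take this test past 0.05. A ratio within a library does not depend on the normalization. The difference in mean log2 ratio was -0.21, with an exact two-sided permutation p of 0.10, the smallest that 3 against 3 allows (0.40 adjusted over the 4 pairs compared). It ran from -0.22 to -0.19 with each library left out in turn. Among the 5p reads of the family, miR-181b-5p accounted for 25.2% ± 0.198 in KO and 27.95% ± 0.573 in EV (SD, n = 3 each), and miR-181a-5p for 63.8% ± 0.506 in KO and 61.3% ± 0.229 in EV.

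The 3p arms specific to chromosome 1 were not called. miR-181a-1-3p stood at 47.2, 55.4 and 48.9 CPM in KO libraries 1 to 3, against 60.0, 57.5 and 63.9 CPM in EV libraries 1 to 3. The groups did not overlap, with KO 2 just under EV 2. The log2 change was -0.26 (SE 0.11, 95% interval -0.52 to -0.00, edgeR adjusted p = 0.209). miR-181b-1-3p was rare, with 37 to 48 reads in KO and 51 to 64 in EV. It stood at 3.53 ± 0.447 CPM in KO and 4.51 ± 0.734 CPM in EV (SD, n = 3 each), with overlapping groups and a log2 change of -0.34 (SE 0.18).

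On chromosome 2, miR-181a-2-3p fell, and it had the lowest log2 change of the family. Its levels were 34.2, 42.4 and 42.99 CPM in KO libraries 1 to 3, against 73.3, 55.8 and 55.6 CPM in EV libraries 1 to 3. Every KO library lay under every EV library, while EV 1 stood above the other EV libraries and KO 1 under the other KO libraries. The means were 39.9 ± 4.89 CPM in KO and 61.6 ± 10.2 CPM in EV (SD, n = 3 each), a log2 change of -0.63 (SE 0.15, edgeR Benjamini-Hochberg adjusted p = 0.0329). Among all 460 tested microRNAs this was the change of rank 19, counted from the lowest. Without EV 1 the log2 change was -0.48 (SE 0.14) and was not called (edgeR adjusted p = 0.0918). miR-181b-2-3p, from the neighbouring hairpin, had only 18 to 24 reads in KO and 12 to 29 in EV. Its log2 change was -0.09, with a 95% interval (-0.80 to 0.62) that holds changes of either sign.

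Whether the chromosome 1 and chromosome 2 copies changed unequally was asked with ratios of the same arm. miR-181a-1-3p had 1.38, 1.31 and 1.14 reads for each read of miR-181a-2-3p in KO libraries 1 to 3, against 0.818, 1.03 and 1.15 in EV libraries 1 to 3. The groups overlapped, since KO 3 lay just under EV 3. The mean log2 ratio was 0.35 ± 0.14 in KO and -0.01 ± 0.25 in EV (SD, n = 3 each), and the difference of 0.36 did not pass (exact two-sided permutation p = 0.20, 0.40 adjusted over 4 pairs). For miR-181b-1-3p to miR-181b-2-3p the ratios were 1.90 to 2.62 in KO and 2.02 to 4.12 in EV, with exact permutation p = 0.60 (0.80 adjusted). With 3 libraries a group this exact test cannot give a p under 0.10, so it could not have passed at 0.05 whatever the ratios, and it leaves unanswered whether the clusters changed unequally.

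**Figure D3:**
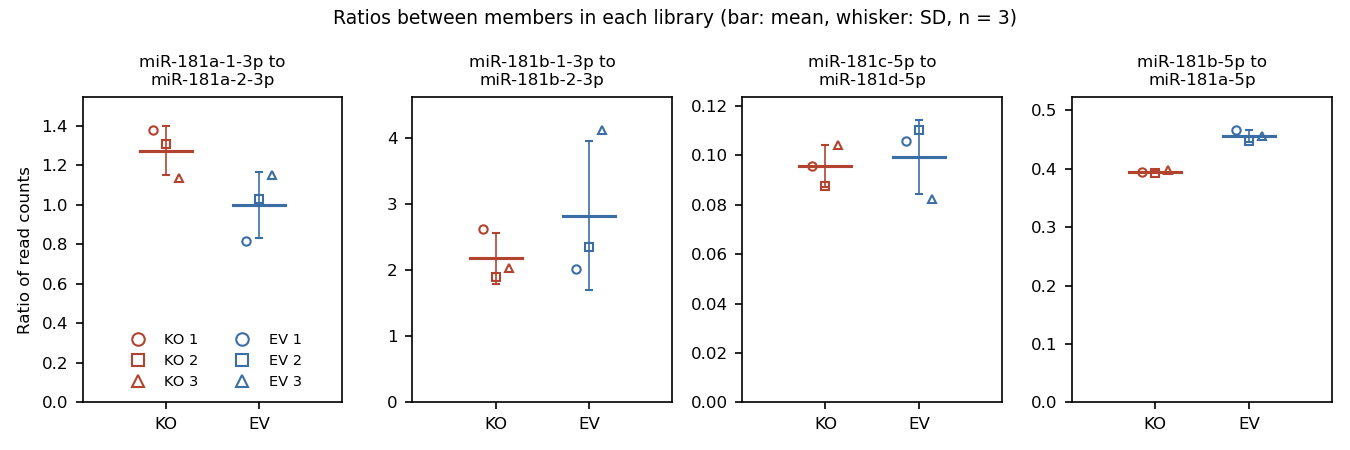
Ratio of read counts between members (vertical axes, from 0, separate scales) in the 3 KO and 3 EV libraries, with points for libraries, bars for means and whiskers for SD. The ratio of miR-181b-5p to miR-181a-5p lies between 0.393 and 0.399 in KO and between 0.447 and 0.466 in EV, while the groups overlap for the other 3 ratios.

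On chromosome 8, where reads of each hairpin have names of their own, no member was called. miR-181d-5p, the more abundant 5p strand there, stood at 58.9, 54.2 and 57.6 CPM in KO libraries 1 to 3, against 61.7, 61.8 and 77.5 CPM in EV libraries 1 to 3. The groups did not overlap, and EV 3 was high. The log2 change was -0.23 (SE 0.12, edgeR adjusted p = 0.286), and -0.12 (SE 0.11) without EV 3. miR-181d-5p is 1 substitution away from miR-181b-5p, and its reads amounted to 42.2%, 37.4% and 39.7% of those of miR-181b-5p in KO libraries 1 to 3, against 31.99%, 36.3% and 37.2% in EV libraries 1 to 3.

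miR-181c-5p stood at 5.43 ± 0.653 CPM in KO and 6.54 ± 0.222 CPM in EV (SD, n = 3 each), with groups apart and a log2 change of -0.27 (SE 0.15). Its reads amounted to 1.28% to 1.64% of those of its close relative miR-181a-5p in KO and 1.38% to 1.78% in EV. How reads were divided between these strands was not tested. miR-181c-3p stood at 18.5, 20.4 and 22.2 CPM in KO libraries 1 to 3, against 30.2, 26.2 and 20.9 CPM in EV libraries 1 to 3. These groups overlapped, since KO 3 lay above EV 3, and the log2 change was -0.34 (SE 0.17, edgeR adjusted p = 0.254). Without EV 3 and KO 2, the libraries high in miR-451a, it was -0.47 (SE 0.17) and was called (edgeR adjusted p = 0.0432). In that fit 88 of the 470 tested microRNAs were called, 34 of them lower in KO. With all libraries 35 of 460 were called, 12 of them lower. The ratio of miR-181c-5p to miR-181d-5p was 0.0874 to 0.104 in KO and 0.0822 to 0.110 in EV (exact permutation p = 0.80, 0.80 adjusted over 4 pairs). miR-181d-3p, the remaining member, had 5, 1 and 0 reads in KO and 0 reads in each EV library, which allows up to 0.191 to 0.268 CPM there (3 counts in a library, counting error only). It did not pass the filter and was not tested.

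The 5p and 3p counts of most pairs were very unequal, and the same arm led in KO and in EV for each of the 5 pairs. miR-181b-5p, fed by both clusters, had 40.3 times the reads of miR-181b-1-3p in KO and 42.1 times in EV, as means of log ratios. miR-181a-5p, also fed by both clusters, had 7.19 times the reads of miR-181a-1-3p in KO and 6.88 times in EV. These ratios are therefore not those of the Mir181b-1 or Mir181a-1 hairpin by itself. In the Mir181c hairpin the 3p arm led, since miR-181c-5p had 0.267 reads for each read of miR-181c-3p in KO and 0.258 in EV. The 3p arm led in 59 of the 154 arm pairs of the table whose arms both passed the filter. miR-181c-3p also stood at 36.8% to 45.4% of the reads of its close relative miR-181a-1-3p in KO and 32.7% to 50.3% in EV, and how reads were divided between them was not tested. Ligation favours some sequences over others, so ratios between different strands describe reads and not molecules.

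A shift in the ratio of 5p to 3p reads between KO and EV was tested with limma over all 154 pairs. For miR-181a and miR-181b the 5p count pools the hairpins of both clusters, while each 3p count comes from 1 hairpin. In those pairs a change in arm use and a change in the balance between clusters cannot be told apart. Within the family, only the miR-181c pair compares the arms of 1 hairpin. The share called was 0% (0 of 154), and 7.79% had an unadjusted p under 0.05. Of the 5 family pairs, 0 were called and 1 had an unadjusted p under 0.05. That pair was miR-181a-5p to miR-181a-2-3p, with a log2 ratio of 3.37, 3.12 and 3.08 in KO libraries 1 to 3, against 2.49, 2.77 and 3.04 in EV libraries 1 to 3. The KO libraries all lay above the EV libraries, KO 3 and EV 3 by little. The difference of 0.42 (SE 0.14) had a limma adjusted p of 0.426. Without EV 3 it was 0.56 (SE 0.13, limma adjusted p = 0.00272) and was called. Without EV 1 it was 0.29 (SE 0.13) and was not called. The other family pairs had differences of -0.38 to 0.06, with adjusted p of 0.990 in limma.

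**Figure D4:**
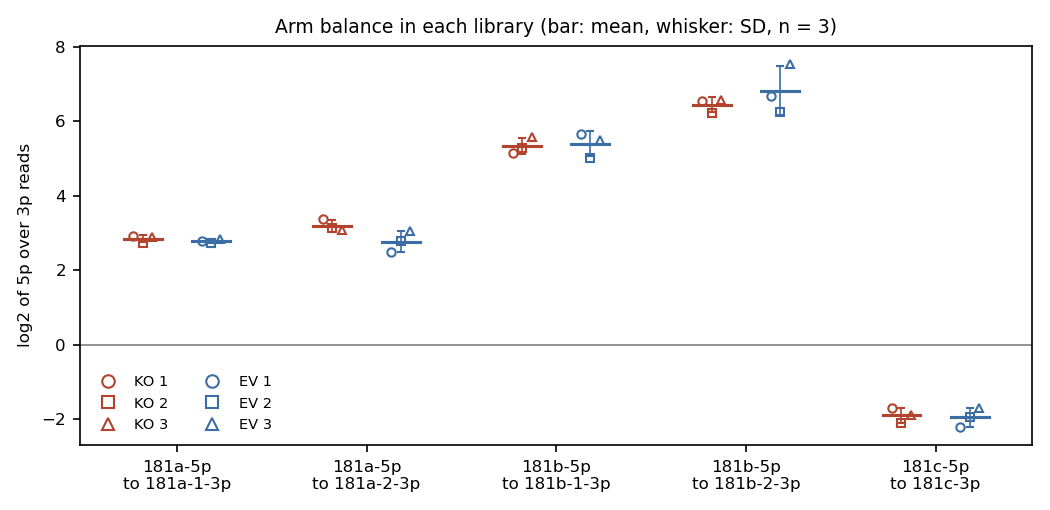
Log2 of the 5p over the 3p read count (vertical axis) for the 5 arm pairs of the family in the 3 KO and 3 EV libraries, with points for libraries, bars for means and whiskers for SD. The miR-181c pair lies under 0 in every library, the others above 0, and only the pair of miR-181a-5p with miR-181a-2-3p has groups that do not overlap.

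Summed by cluster, the levels were lower in KO in each pool, and the sums are given as a description with no test. The 4 strands with the shared seed summed to 558, 573 and 574 CPM in KO libraries 1 to 3, against 674, 620 and 750.3 CPM in EV libraries 1 to 3. The mean of that seed pool was 16.7% lower in KO. The chromosome 1 3p arms summed to 54.0 ± 4.41 CPM in KO and 64.99 ± 3.03 CPM in EV (SD, n = 3 each), the chromosome 2 3p arms to 41.5 ± 5.02 CPM in KO and 63.3 ± 10.3 CPM in EV, and the chromosome 8 members to 82.9 ± 3.22 CPM in KO and 99.3 ± 5.06 CPM in EV. These means were 16.9%, 34.5% and 16.5% lower in KO. Most of the chromosome 2 sum was miR-181a-2-3p, with means of 39.9 CPM in KO and 61.6 CPM in EV. Its 34.5% therefore mainly restates the fall of that strand. Likewise, most of the chromosome 1 sum was miR-181a-1-3p, with means of 50.5 CPM in KO and 60.5 CPM in EV.

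In order of mean level over the 6 libraries, the family ran from miR-181a-5p (390 CPM, rank 61 of the 460 tested microRNAs) over miR-181b-5p (167 CPM), miR-181d-5p (61.96 CPM), miR-181a-1-3p (55.5 CPM), miR-181a-2-3p (50.7 CPM), miR-181c-3p (23.1 CPM), miR-181c-5p (5.98 CPM), miR-181b-1-3p (4.02 CPM) and miR-181b-2-3p (1.66 CPM) to miR-181d-3p (0.0809 CPM). The ranges of miR-181d-5p and miR-181a-1-3p overlapped in KO and in EV, and those of miR-181a-1-3p and miR-181a-2-3p overlapped in EV but not in KO. All other neighbours in this order were apart in both groups.

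The microRNAs outside the family whose log2 CPM over the 6 libraries was most like that of miR-181a-5p, among 243 with at least 10 CPM on average, were the endothelial miR-126a-3p (Pearson r = 0.975), miR-299a-3p of the Dlk1-Dio3 cluster (r = 0.925) and the mesenchymal miR-199a-5p (r = 0.920). For miR-181b-5p they were miR-299a-3p (r = 0.963), miR-708-5p (r = 0.957) and miR-455-5p (r = 0.939). These values describe likeness over 6 shared libraries in 2 groups, and the highest of many were picked. miR-708-5p and miR-455-5p were themselves called lower in KO, with log2 changes of -0.58 (SE 0.14, edgeR adjusted p = 0.0367) and -0.63 (SE 0.10, edgeR adjusted p = 0.00777). miR-126a-3p stood at 31.8 ± 0.112 CPM in KO and 35.8 ± 3.10 CPM in EV (SD, n = 3 each) and was not called.

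Among the marker lists, the epithelial list moved in the same direction as the family. Its 6 markers summed to 25.3 to 27.3 CPM in KO and 41.4 to 50.3 CPM in EV, 2 of the 4 tested fell, and 0 rose. Those were miR-200a-3p, at 6.16 to 6.78 CPM in KO and 10.4 to 13.3 CPM in EV (edgeR log2 change -0.88, adjusted p = 0.00898, SE 0.15), and miR-200b-3p, at 16.6 to 18.2 CPM in KO and 28.3 to 32.7 CPM in EV (edgeR log2 change -0.80, adjusted p = 0.00777, SE 0.13). Both belong to the miR-200 family, known from epithelia. The other tested markers of the list, miR-200c-3p and miR-429-3p, had log2 changes of -0.33 and -0.67 and were not called. miR-205-5p, also on the epithelial list, had reads in EV 2 alone (0.245 CPM), and miR-141-3p had 0 reads in KO and at most 0.178 CPM in EV. The part of these epithelial markers in the miR-181 result was not tested. Blood and lymphoid markers (9 listed, 4 tested, 0 called) summed to 71.3 to 131 CPM in KO and 60.0 to 133 CPM in EV. Endothelial markers (2 tested, 0 called) summed to 34.7 to 35.4 CPM in KO and 36.6 to 42.1 CPM in EV. Neural markers (4 listed, 3 tested, 0 called) summed to 105 to 166 CPM in KO and 114 to 164 CPM in EV, and muscle markers (5 listed, 4 in the table, 2 tested, 0 called) to 21.0 to 25.1 CPM in KO and 26.3 to 27.2 CPM in EV. The tested muscle markers had changes of opposite sign, each with groups that did not overlap and neither called. miR-206-3p, which made up most of the sum, stood at 18.8 to 22.5 CPM in KO and 25.4 to 25.9 CPM in EV (edgeR log2 change -0.35, adjusted p = 0.169), and miR-1a-3p at 1.75 to 2.35 CPM in KO and 0.828 to 1.25 CPM in EV (edgeR log2 change 1.06, adjusted p = 0.0657).

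The authors' deposited table of differing microRNAs lists 78 names, 7.59% of those in the count table, of which 36 (3.50% of the count table) were lower in KO. It holds 4 of the 10 family members, all lower in KO. Of the 1028 names counted, only 460 had enough reads to be tested here, whereas 9 of the 10 members had. Both percentages include names with too few reads to test, so they are not a like-for-like background for the family. The share listed among tested names was not counted. In the authors' deposited table, miR-181b-5p has a log2 change of -0.42 (adjusted p = 4.60e-05), miR-181a-2-3p one of -0.62 (adjusted p = 0.00156), miR-181a-1-3p one of -0.27 (adjusted p = 0.0213) and miR-181a-5p one of -0.22 (adjusted p = 0.0363). Of these, edgeR above also called miR-181a-2-3p and miR-181b-5p, while miR-181a-1-3p and miR-181a-5p were not, with log2 changes in edgeR of -0.26 and -0.20.

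**Figure D5:**
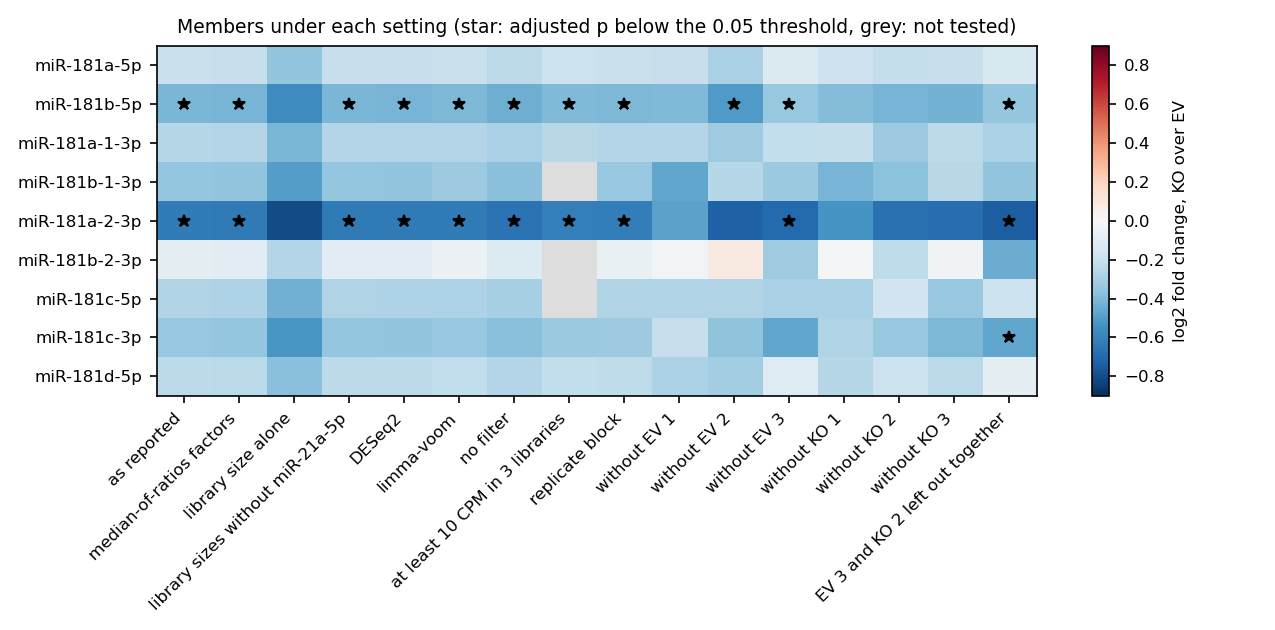
Log2 fold change of KO over EV (colour) of each tested member (rows) as reported and under 15 other settings (columns), with a star where the adjusted p was under 0.05. Grey marks members not tested under a setting. The log2 change is below 0 for 8 members in every setting that tested them, and for miR-181b-2-3p in all but the fit without EV 2, while the stars of miR-181a-2-3p and miR-181b-5p are lost with library size alone and in several fits that leave out 1 library.

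The calls changed between settings more than the values did, and a fit that leaves out 1 library also rests on fewer libraries. Without KO 1, KO 2 or KO 3, miR-181b-5p stood at -0.39, -0.42 and -0.42. Its SE was 0.11 in each of these fits, against 0.09 with all libraries. miR-181b-5p was called in 10 of 15 other settings, with log2 changes of -0.57 to -0.34, and miR-181a-2-3p in 9 of 15, with log2 changes of -0.80 to -0.48. With 1 library left out, both were called without EV 3, miR-181b-5p alone without EV 2, and neither without EV 1, KO 1, KO 2 or KO 3, where edgeR adjusted p reached 0.123 for miR-181b-5p and 0.152 for miR-181a-2-3p. Without the miR-451a-high libraries EV 3 and KO 2 together, miR-181b-5p stood at -0.35 (SE 0.12, edgeR adjusted p = 0.0315) and miR-181a-2-3p at -0.74 (SE 0.15, edgeR adjusted p = 3.79e-04). Both were called in that fit, where 88 of the 470 tested microRNAs were called, against 35 of 460 with all libraries. Scaled by library size only, the median log2 change of all tested microRNAs was -0.16, that of miR-181b-5p was -0.57 (SE 0.13) and that of miR-181a-2-3p was -0.80 (SE 0.23), and neither member was called (edgeR adjusted p = 0.0639 and 0.119).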

How the data were processed

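Small RNAs were sequenced from 3 KO and 3 EV libraries, built per the labels' protocols by adaptor ligation, PCR and gel selection. Bowtie, mm10 and DESeq 1.8.3 are named per the submitters' processing notes, without roles. The authors deposited whole-number read counts per mature microRNA, used here as they stand, and TPM values, which per the file headers and totals are those counts divided by the library total on the usual TPM scale and entered no test. A comparison table deposited by the authors gives, for each group, their average normalized count (a signal without spread), with a log2 fold change and p-values. Some of these are quoted.

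Counts were tested by edgeR 4.0.16 (R 4.3.3) with TMM factors, filterByExpr (minimum count 10, minimum total 15) and the two-sided quasi-likelihood test; SE and intervals were taken from its F statistic. Arm ratios (0.5 added to each count) were tested by limma 3.58.1, with the level of the weaker arm as trend. A 3p name with a copy number was paired with its 5p name without one. Ratios between members used exact permutation tests, for pairs with at least 10 reads in every library. Adjustment was Benjamini-Hochberg throughout. The scripts were tested on simulated data with changes larger than those of any member, so that check does not cover changes of the size seen here. Named microRNAs were all members, the 3 microRNAs most correlated with the most abundant member and with the called member of lowest adjusted p, and 6 marker lists. Members, lists and tests were chosen with earlier results of these data known. No 2 libraries of a group agreed within sampling noise (lowest chi-square 9174 on 529 degrees of freedom). Annotation was GENCODE M21 and RefSeq, both GRCm38. Alternatives were other scalings, filters and tools (DESeq2 1.42.0, limma-voom), a replicate block and omitted libraries.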

Additional observations from a re-analysis of the deposited data

How the results depend on the processing

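Counts were lowest for miR-181b-2-3p among the tested members, and its SE of 0.32 was the largest, whereas miR-181c-5p, also with few reads, had an SE of 0.15, like that of miR-181a-2-3p. Against 35 microRNAs (12 lower in KO) and 2 members called, library size alone gave 5 (4 lower) and 0, no filter gave 56 microRNAs, and leaving out EV 3 with KO 2 gave 88. That pair of libraries was chosen with their miR-451a levels known. With 1 library left out, calls ran from 15 (without KO 2) to 59 microRNAs (without EV 3) and from 0 to 2 members. The number of called family arm pairs was 0, with 0 to 1 when 1 library was left out and 1 without EV 3 and KO 2. Without EV 3 and KO 2 the sign turned for the ratio difference of miR-181b-1-3p to miR-181b-2-3p (0.084) and for the arm differences of miR-181b-5p to miR-181b-1-3p (0.014) and to miR-181b-2-3p (0.098). With 1 library left out, signs also turned for the log2 change of miR-181b-2-3p (-0.32 to 0.082), the arm differences of miR-181b-5p to miR-181b-1-3p (-0.25 to 0.074) and miR-181c-5p to miR-181c-3p (-0.074 to 0.17), and the ratio difference of miR-181c-5p to miR-181d-5p (-0.18 to 0.035). None of these was called in any setting, and the cause was not tested.

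The labels give replicate numbers without saying whether these pair KO with EV libraries. Deviations from group means correlated at 0.297, -0.0354 and -0.217 for the numbers 1, 2 and 3. With 3 libraries a group, such values cannot settle whether the samples were paired. Across numbers, the highest correlation was 0.435, for KO 2 with EV 3, the libraries high in miR-451a. The lowest was -0.487, for KO 2 with EV 1. With the replicate number as a block, 34 microRNAs and 2 members were called, and not every library correlated best with its own number.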
